A study of Mus musculus with 5 samples.

Results

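The 35 genes described here act in the G2 phase and mitosis of the cell cycle. They were chosen by name as a module, with earlier results of these data known. All 35 were among the 15971 genes measured in 6987 single cells of developing mouse cerebellum. By their titles, the 5 droplet libraries form 3 groups, with 1 library called EomesCreER e16, 2 called RL e14 and another 2 called RL e13. RL stands for the rhombic lip, the dorsal germinal zone of the cerebellum, in a study of where Group 3 and Group 4 medulloblastoma arise. All RL titles also carry the letters UT, which the labels do not explain. EomesCreER names a mouse line with a tamoxifen-inducible Cre under the control of Eomes. The labels do not say whether its cells were sorted or how many animals were pooled, and they name no strain. The title and the age tag of RL e13 replicate 2 disagree (e13 and e14). The title was used here, and the age tag served as an alternative. The cell table names batches, of which 4 match a title. The fifth matches none and was assigned to the only title left over, EomesCreER e16, which is an assumption.

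Cells enter mitosis when cyclin B and cyclin A activate the kinase CDK1, and they leave it when the anaphase-promoting complex (APC/C), with its activator Cdc20 and its ubiquitin-conjugating enzyme Ube2c, has securin (Pttg1) and cyclin B destroyed. Most of the genes involved are transcribed only in late S phase, G2 and mitosis, so their mRNA marks cells that divide. In the rhombic lip, Sox2-positive progenitors line the ventricle, Atoh1-positive granule cell progenitors go on dividing on the surface of the cerebellum, and Eomes (Tbr2) marks unipolar brush cells and their precursors, glutamatergic interneurons that stop dividing as they differentiate.

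Promoter windows of the genes on which the results turn are shown first, because many genes of this kind share a short element, the cell cycle genes homology region (CHR, most often TTTGAA), beside CCAAT boxes bound by NF-Y. The windows run from 250 bases before to 50 bases after the annotated start, on mouse GRCm38.p6, as given by RefSeq. 31 of the 35 genes had a window (32 windows, 2 for Prc1), and Ccna2, Aurkb, Tpx2 and Dlgap5 had none. Capitals mark the CHR motif TTTGAA, its variant reading TTTAAA and the NF-Y box CCAAT on either strand. Ccnb2 and Cdk1 encode a cyclin and its kinase, Aspm had the lowest level in Eomes cells relative to Sox2 progenitors, Ube2c departed most from the other genes, and Pttg1 held none of the 3 motifs.
Ccnb2, chr9:70421505-70421804, minus strand: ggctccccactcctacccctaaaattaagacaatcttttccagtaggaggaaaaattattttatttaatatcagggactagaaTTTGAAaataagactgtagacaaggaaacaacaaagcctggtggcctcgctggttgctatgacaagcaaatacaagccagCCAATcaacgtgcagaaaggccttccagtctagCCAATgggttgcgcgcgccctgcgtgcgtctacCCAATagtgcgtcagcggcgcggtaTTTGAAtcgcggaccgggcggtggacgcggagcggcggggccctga
Cdk1, chr10:69352863-69353162, minus strand: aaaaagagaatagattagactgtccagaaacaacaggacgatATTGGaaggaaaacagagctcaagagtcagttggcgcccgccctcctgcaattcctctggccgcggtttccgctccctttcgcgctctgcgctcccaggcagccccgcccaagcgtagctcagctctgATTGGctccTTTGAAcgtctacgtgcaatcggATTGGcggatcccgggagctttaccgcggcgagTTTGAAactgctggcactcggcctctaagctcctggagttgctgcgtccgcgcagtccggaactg
Aspm, chr1:139454523-139454822, plus strand: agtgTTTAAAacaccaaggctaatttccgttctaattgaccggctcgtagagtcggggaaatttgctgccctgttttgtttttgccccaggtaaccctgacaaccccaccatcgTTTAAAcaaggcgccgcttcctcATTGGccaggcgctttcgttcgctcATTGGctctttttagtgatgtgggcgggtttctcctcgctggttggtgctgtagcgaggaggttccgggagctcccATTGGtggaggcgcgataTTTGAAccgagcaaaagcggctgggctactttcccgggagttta
Ube2c, chr2:164769679-164769978, plus strand: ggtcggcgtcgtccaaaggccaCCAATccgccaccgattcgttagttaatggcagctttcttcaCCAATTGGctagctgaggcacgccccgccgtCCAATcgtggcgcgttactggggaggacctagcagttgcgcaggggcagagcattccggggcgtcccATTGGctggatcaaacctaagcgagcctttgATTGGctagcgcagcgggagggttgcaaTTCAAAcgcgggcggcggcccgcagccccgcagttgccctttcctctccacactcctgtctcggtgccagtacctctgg
Pttg1, chr11:43425932-43426231, minus strand: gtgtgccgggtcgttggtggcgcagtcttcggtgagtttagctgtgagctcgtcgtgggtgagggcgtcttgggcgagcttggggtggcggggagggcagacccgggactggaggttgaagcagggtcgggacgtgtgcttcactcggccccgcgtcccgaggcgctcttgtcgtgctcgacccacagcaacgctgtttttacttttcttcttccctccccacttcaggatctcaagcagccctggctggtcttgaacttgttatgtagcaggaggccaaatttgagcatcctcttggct
TTTGAA, read on both strands, occurred in 23 of the 31 genes (74.2%), against 17.9% of all 32851 windows of the same length and 20.2% of the 27025 genes in the table. CCAAT occurred in 25 of 31 genes (80.6%), against 37.4% of all windows. TTTAAA, which is its own reverse complement, occurred in 9 of 31 genes (29.0%), against 13.2% of all windows. 21 genes held both TTTGAA and CCAAT, and 3 genes held none of the 3 motifs. In Ccnb2, 3 CCAAT boxes began 87, 54 and 21 bases before the start, 33 bases apart, followed by a TTTGAA 4 bases after it. In Cdk1, CCAAT boxes 32 bases apart began 80 and 48 bases before the start and a TTTGAA began 15 bases before it. In Ube2c, CCAAT boxes on opposite strands began 3 bases apart and overlap. These matches are of letters alone.

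Cells were assigned to 3 classes by the gene that gives the class its name. An Eomes cell had Eomes at 1 or more per 10000 UMIs (unique molecular identifiers, which count mRNA molecules). An Atoh1 cell had Atoh1 at that level and Eomes below it, and a Sox2 progenitor had Sox2 at that level and both others below it. The e16 library held 2396 Eomes cells, 19 Atoh1 cells and 11 Sox2 progenitors. RL e14 replicate 1 held 168, 569 and 184 cells of these classes in the same order, RL e14 replicate 2 held 144, 371 and 125, RL e13 replicate 1 held 10, 199 and 451, and RL e13 replicate 2 held 219, 907 and 537. Levels were compared only for classes with 20 or more cells in a library. The e16 library therefore enters with its Eomes cells alone, and RL e13 replicate 1 enters without its Eomes cells. Between 46 and 250 cells of a library fell in no class. 6 cell barcodes occurred in more than 1 library.

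The median depth was 10346 UMIs per cell in the e16 library, against 15855 to 19970 in the RL libraries, so cells were thinned to 5000 UMIs wherever detection was counted. Shallower cells were left out there, 22 of the 2396 Eomes cells in the e16 library and 0 to 9 cells of a class in an RL library. Lists of other genes were used to check the classes. The sum of 8 radial glia and progenitor genes, Fabp7 and Hes5 among them, was 1383 to 1892 CPM in Eomes cells, 1963 to 4621 CPM in Atoh1 cells and 8177 to 13953 CPM in Sox2 progenitors of the RL libraries. The 4621 CPM came from RL e13 replicate 1, and the Atoh1 cells of the other RL libraries had 1963 to 2044 CPM. The Eomes check list, with Lmx1a and Otx2, summed to 1694 CPM in Eomes cells of the e16 library and 749 to 971 CPM in those of the RL libraries, against 202 to 257 CPM in Atoh1 cells and 93.4 to 184 CPM in Sox2 progenitors. The Atoh1 check list did not follow its name, since its 8 genes summed to 3266 to 3859 CPM in RL Eomes cells and 1219 to 2321 CPM in Atoh1 cells. The 1219 CPM, from RL e13 replicate 1, lay within the 1012 to 1292 CPM of RL Sox2 progenitors. Markers of GABAergic neurons, roof plate, endothelium and red blood cells summed to at most 72.1 CPM in any class, and those of microglia, mesenchyme and the oligodendrocyte lineage to at most 14.1 CPM. Here CPM is the mean level over the cells of a class, scaled to a sum of 1000000. It is a per-molecule scale of a 3' assay and is not divided by length, so levels are compared between groups and not between genes.

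A cell was called G2/M-high when 8 or more of the 35 genes were detected at 5000 UMIs. The share was lowest in Eomes cells of the e16 library, intermediate in Eomes cells of the RL libraries, and 28.5 to 49.7% in Atoh1 cells and Sox2 progenitors. Among Eomes cells, 3.83% (91 of the 2374 thinned cells; 95% Wilson interval 3.13 to 4.68%) were G2/M-high in the e16 library. In the RL libraries the share was 29.8% (23.4 to 37.1%) in RL e14 replicate 1, 18.2% (12.7 to 25.3%) in RL e14 replicate 2 and 22.8% (17.8 to 28.8%) in RL e13 replicate 2. Atoh1 cells held 41.3% and 37.5% G2/M-high cells in the RL e14 libraries and 29.4% and 38.9% in the RL e13 libraries. Sox2 progenitors held 49.7% and 28.5% in the RL e14 libraries and 43.4% and 40.9% in the RL e13 libraries. The intervals cover counting error only. Without thinning, the shares were 4.51% in e16 Eomes cells, 25.7 to 37.5% in RL Eomes cells, 43.2 to 53.6% in Atoh1 cells and 38.4 to 58.7% in Sox2 progenitors.

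**Figure D1:**
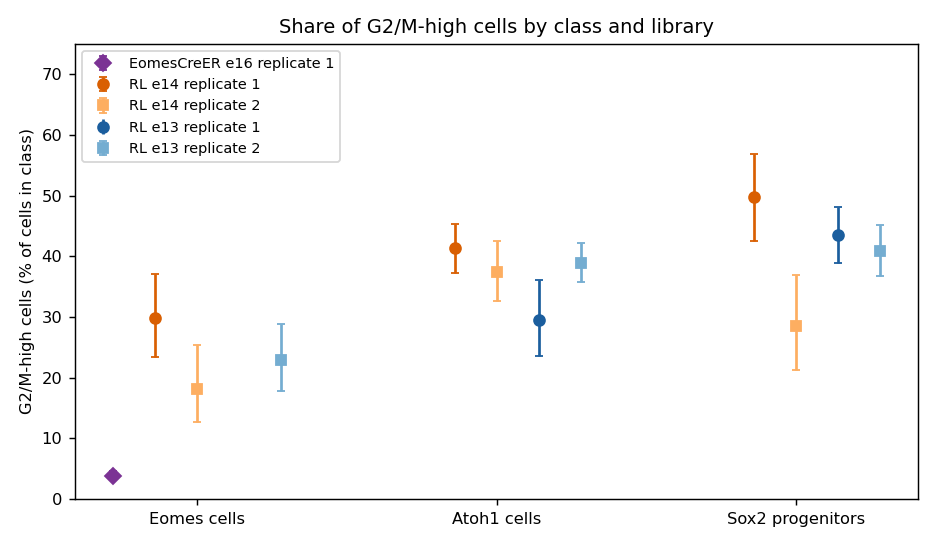
Share of G2/M-high cells (% of the cells of a class, y axis) in Eomes cells, Atoh1 cells and Sox2 progenitors, 1 point per library with its 95% Wilson interval. The e16 Eomes cells stand at 3.83%, below the 18.2 to 29.8% of the RL Eomes cells, and the Atoh1 and Sox2 points overlap.

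The share in Eomes cells was below that in Atoh1 cells in each of the 3 RL libraries with both classes, with differences of -11.5, -19.3 and -16.1 percentage points (mean -15.6 ± 3.89, SD, n = 3). Between Atoh1 cells and Sox2 progenitors the sign was not the same in all libraries. Atoh1 cells minus Sox2 progenitors gave -8.43 points in RL e14 replicate 1, 9.01 in RL e14 replicate 2, -13.99 in RL e13 replicate 1 and -1.99 in RL e13 replicate 2, so the mean of -3.85 ± 9.88 points (SD, n = 4) lay within the spread of the libraries. The summed level of all 35 genes had the same sign in each library, with 4252, 4496, 3364 and 4577 CPM in Atoh1 cells and 5564, 3815, 5049 and 5141 CPM in Sox2 progenitors of RL e14 replicates 1 and 2 and RL e13 replicates 1 and 2. It was 799 CPM in Eomes cells of the e16 library and 3536, 2520 and 3383 CPM in those of RL e14 replicates 1 and 2 and RL e13 replicate 2. Among the thinned Eomes cells, 106 of 2374 in the e16 library also had Atoh1 over the gate, against 77 of 168, 37 of 143 and 109 of 219 in these RL libraries. With Eomes cells required to have 0 UMIs of Atoh1 and Sox2, the sum was 585 CPM in 2159 cells of the e16 library, against 1909, 1427 and 512 CPM in 61, 75 and 61 cells of the RL libraries in the same order. The G2/M-high share was then 2.43% in the e16 library, against 11.5%, 10.8% and 3.28%, so RL e13 replicate 2 fell below the e16 library for the sum and close to it for the share. A gate of 0 UMIs drops deeper cells more readily, and the RL libraries were deeper. With Atoh1 cells and Sox2 progenitors also required to have 0 UMIs of the other gate genes, RL e13 replicate 1 had too few Atoh1 cells (18). The sum was then 3019, 3240 and 3175 CPM in Atoh1 cells of the other RL libraries in the same order. Sox2 progenitors there had 5333, 3429 and 5076 CPM, more in each library. The share was 32.4%, 29.6% and 26.7% against 49.7%, 25.0% and 40.4%, so its sign still differed between libraries. No test was made on these sums or on the shares.

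The number of the 35 genes detected per cell was spread widely, with most cells at the low end and a long flat range above. In RL libraries, 59.6% of Eomes cells, 43.9% of Atoh1 cells and 37.9% of Sox2 progenitors had 0 to 2 of the genes, and 9.63%, 11.8% and 14.1% had 24 or more, in the same order. In the e16 library, 89.2% of Eomes cells had 0 to 2 of the genes and 1.43% had 24 or more. The fullest cell had all 35 genes in e16 Eomes cells, 32 in RL Eomes cells and 34 in RL Atoh1 cells and Sox2 progenitors. G2/M-high is therefore a range and not a cell type. 2.41% of RL Eomes cells, 3.96% of Atoh1 cells and 4.68% of Sox2 progenitors had 7 or 8 of the genes, just under or at the limit.

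**Figure D2:**
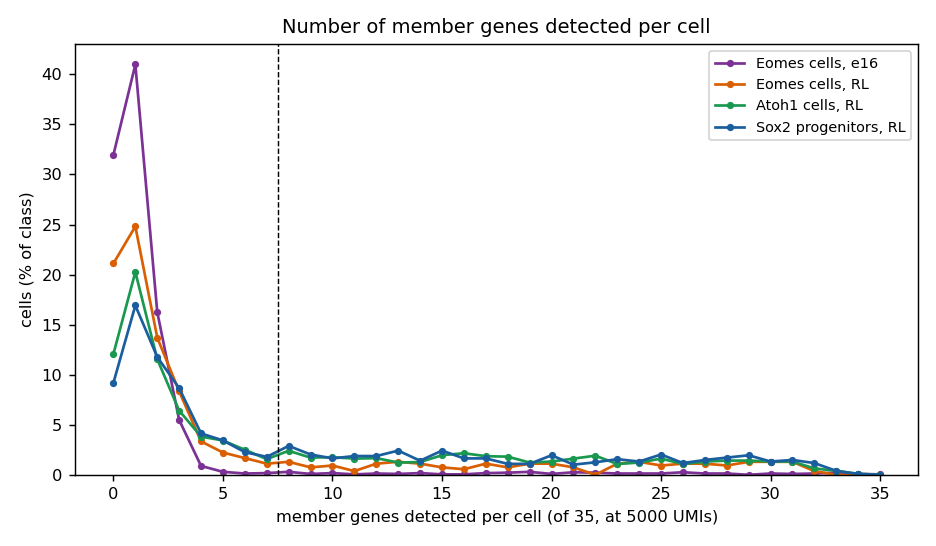
Number of the 35 genes detected per cell at 5000 UMIs (x axis) against the share of the cells of a class (%, y axis) for e16 Eomes cells and for Eomes cells, Atoh1 cells and Sox2 progenitors of the RL libraries. The dashed line marks the limit of 8 genes, and 89.2% of e16 Eomes cells lie at 0 to 2.

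The genes came in at different points of this range. Hmgb2, a chromatin protein of dividing cells, was detected in 48.8% of RL cells with at most 2 of the other genes and in 97.5% of those with 8 to 15. Cenpf, a kinetochore protein, Cdca8 and Birc5, both subunits of the chromosomal passenger complex, and Mki67, which coats mitotic chromosomes, were detected in 61.9 to 70.0% of cells with 8 to 15 others. At the other end, Aurka (6.13%), Ube2c (7.18%), Plk1 (8.35%) and Aspm (9.35%) were rare in those cells, and reached 61.2%, 56.1%, 61.2% and 61.8% in cells with 24 or more others. Aurka and Plk1 are kinases of the spindle poles, and Aspm is a spindle pole protein whose loss causes a small brain. Cdc20 was detected in 21.0% of cells with 8 to 15 others and in 90.1% of those with 24 or more. A gene with few molecules is detected late in such a ranking whatever its timing, and this was not tested.

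**Figure D3:**
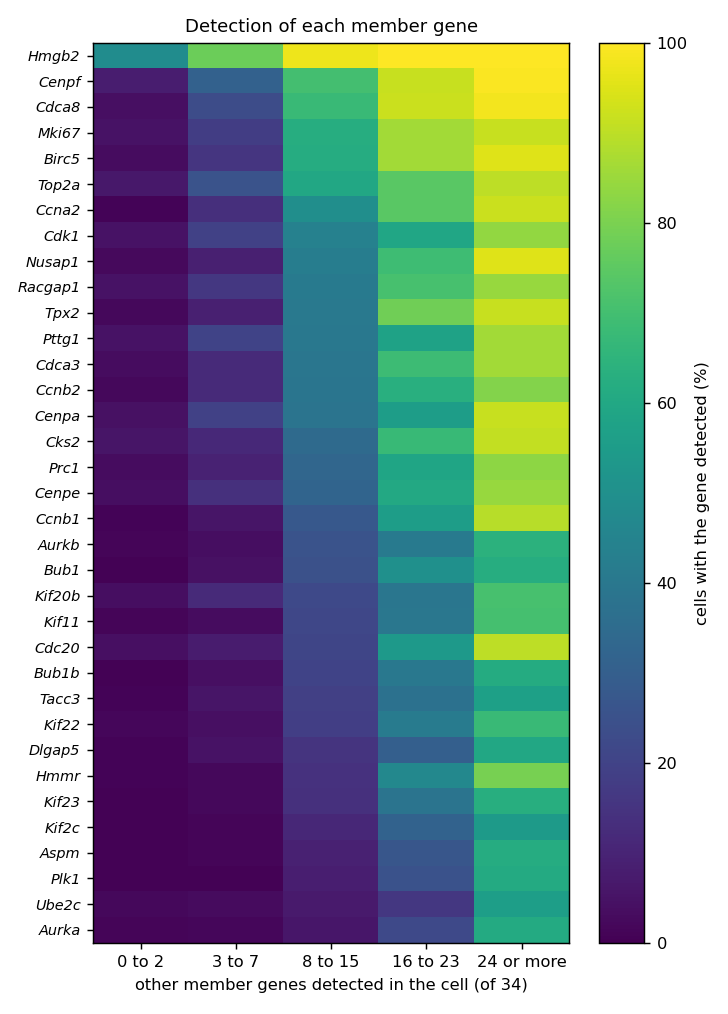
Share of RL cells in which each gene was detected (colour, %), by the number of other members of the 35 detected in the same cell (columns), with genes ordered by their share at 8 to 15 others. Hmgb2 is detected in 48.8% of cells with 0 to 2 others, and Aurka, Ube2c, Plk1 and Aspm are below 10% until 16 or more others are present.

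A second order among the genes was seen inside G2/M-high cells, where each gene was set against the summed level of 30 S phase genes. Over 10 sets (1 class in 1 library, with 50 or more G2/M-high cells), Cenpa, the centromeric histone H3, had a mean Pearson r of -0.79 (-0.88 to -0.73) with the S phase sum. Pttg1 had -0.72, Ccnb2 -0.63, Cdc20 -0.47, Cenpe, a kinetochore motor, -0.37 and Ccnb1 -0.35. Top2a, which untangles DNA, had 0.49 (0.32 to 0.65), Cdk1 0.36, Aurkb, the passenger complex kinase, 0.35, and Nusap1, a spindle protein, 0.31. The cells of a set share a library, and both measures share the total of the cell. In these cells cyclin B mRNA and the mRNA of the kinase it activates thus lay on opposite sides of 0.

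Across cells of a set, the genes most like the 35 genes were mostly other genes of mitosis. By mean Pearson r with the natural log of their summed level over 12 sets, the 10 highest genes outside the 35 were Pbk (0.80), Ckap2l, Casc5, Kif15, Spc24, 2810417H13Rik, Smc2, Kif4, H2afx and Cenpm (0.73). RefSeq gives Casc5 as an older name of the kinetochore gene Knl1 and 2810417H13Rik as one of Pclaf, a PCNA-binding protein. The genes farthest in the other direction were Hsp90ab1 (-0.48) and Aldoa (-0.46). Within the 35, Cdca8 followed the sum of the others most closely (mean r 0.89), then Birc5 (0.88) and Hmgb2 (0.86), and Ube2c least (0.60), with Aurka at 0.64.

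Eomes cells were compared with Sox2 progenitors to ask which genes were lower in the most differentiated class. 32 of the 35 genes were lower and 0 higher (limma on log2(CPM + 5), library as a block, adjusted p under 0.05 over 8499 genes), where 56.9% of all genes passed in either direction and 33.1% were lower. The median log2 difference was -0.63 for the 35 genes and -0.08 for all genes. All 13 genes of the spindle and of cytokinesis fell, as did all 3 of chromosome structure, 6 of 7 cyclins, CDK partners and mitotic kinases, 5 of 6 centromere and passenger genes and 5 of 6 checkpoint and APC/C genes. Aspm fell most, to 20.3, 14.4 and 21.0 CPM in Eomes cells of RL e14 replicates 1 and 2 and RL e13 replicate 2, against 39.1, 40.3, 59.0 and 55.9 CPM in Sox2 progenitors of RL e14 replicates 1 and 2 and RL e13 replicates 1 and 2 (log2 difference -1.14 ± 0.12, SE, adjusted p = 5.42e-05). No Eomes value reached a Sox2 value. Ccnb2, a B-type cyclin, had 79.9, 50.2 and 67.7 CPM in Eomes cells, against 156, 113, 124 and 126 CPM in Sox2 progenitors (-0.98 ± 0.11, adjusted p = 6.23e-05), again without overlap. Cenpf followed at -0.97 ± 0.13, Prc1, which bundles the central spindle, at -0.90 ± 0.13, and Kif11, the motor that separates the spindle poles, at -0.89 ± 0.11, with adjusted p-values of 0.000118 to 0.000392 in limma. Mki67 had 121, 81.7 and 147 CPM in Eomes cells, against 200, 149, 265 and 228 CPM in Sox2 progenitors (-0.79 ± 0.14, adjusted p = 0.00107 in limma). The Eomes values of Mki67 ended just below the lowest Sox2 value. Without RL e14 replicate 1 the count was 21 genes lower, and without RL e13 replicate 2 it was 20.

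3 genes were not lower at the threshold. Ube2c had 36.7, 47.7 and 37.5 CPM in Eomes cells, against 24.3, 32.5, 31.7 and 28.2 CPM in Sox2 progenitors (0.35 ± 0.17, adjusted p = 0.11 in limma). Each Eomes value lay above each Sox2 value, so the level of Ube2c pointed away from the other genes. Its difference was -0.19 when cells of each class with any UMI of the other gate genes were left out, and over all alternatives it ranged from -0.19 to 0.51. Aurka had -0.14 ± 0.17 (adjusted p = 0.486 in limma) and Cenpa -0.35 ± 0.14 (adjusted p = 0.0519 in limma).

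Eomes cells were set against Atoh1 cells in the same model. 20 of the 35 genes were lower and 0 higher, where 44.2% of all genes passed and 23.9% were lower, and the median log2 difference was -0.43, against -0.03 over all genes. The largest called difference was that of Mki67, with 121, 81.7 and 147 CPM in Eomes cells and 168, 182, 177 and 221 CPM in Atoh1 cells (-0.64 ± 0.14, adjusted p = 0.00516 in limma). The groups did not overlap. Tpx2, which activates Aurora A on the spindle, had 83.5, 69.8 and 89.7 CPM in Eomes cells, against 123, 131, 115 and 141 CPM in Atoh1 cells (-0.63 ± 0.11, adjusted p = 0.00148 in limma). Bub1, a kinase of the spindle checkpoint, had 33.3, 25.6 and 34.3 CPM in Eomes cells, against 48.4, 45.3, 52.8 and 63.3 CPM in Atoh1 cells (-0.62 ± 0.12, adjusted p = 0.00256 in limma). Both were lower in every Eomes profile than in any Atoh1 profile. Aspm (-0.63 ± 0.12) and Ccnb2 (-0.61 ± 0.11) were also lower, with adjusted p-values of 0.00289 and 0.00185 in limma. All 3 genes of chromosome structure fell, Top2a by 0.51 and Hmgb2 by 0.42 on the log2 scale beside Mki67.

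15 genes did not pass between Eomes cells and Atoh1 cells. They included Ccnb1 (-0.30 ± 0.14), Cdk1 (-0.43 ± 0.17), Plk1 (-0.31 ± 0.17) and Cdc20 (-0.22 ± 0.13), with adjusted p-values of 0.0619 to 0.206 in limma. Hmmr, a microtubule-binding protein of the spindle, had -0.08 ± 0.13 (adjusted p = 0.655 in limma). Ube2c had 36.7, 47.7 and 37.5 CPM in Eomes cells, against 22.8, 46.9, 19.3 and 34.2 CPM in Atoh1 cells (0.34 ± 0.17, adjusted p = 0.139 in limma), and the groups overlapped. Prc1 stood at the threshold with -0.37 ± 0.13 (adjusted p = 0.05002 in limma). How many genes passed turned on how Eomes cells were gated. With each class required to have 0 UMIs of the other gate genes, 32 genes were lower and the median was -1.31. With gates of 2 per 10000 the count was 13, and without RL e14 replicate 1 or RL e13 replicate 2 it was 12 or 9. Cells with both Eomes and Atoh1 over the gate, which count as Eomes cells, had 42.9%, 40.5% and 35.8% G2/M-high cells in RL e14 replicates 1 and 2 and RL e13 replicate 2, close to the 41.3%, 37.5% and 38.9% of Atoh1 cells there, and 16.04% in the e16 library. In Eomes cells the neuronal genes, Dcx and Stmn2 among 6, summed to 8137 to 10522 CPM in the RL libraries, against 843 to 1843 CPM in Atoh1 cells. Their part in the difference was not tested. Fewer dividing cells and less mRNA per dividing cell cannot be told apart in class means.

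Atoh1 cells were compared with Sox2 progenitors to see whether both classes, as gated, differ in these genes. The gate let Atoh1 cells hold Sox2 as well. Those over the Sox2 gate ranged from 106 of 371 thinned Atoh1 cells in RL e14 replicate 2 to 143 of 197 in RL e13 replicate 1. The classes compared here therefore overlap in Sox2. With both classes required to have 0 UMIs of the other gate genes, the summed level was lower in Atoh1 cells in each library that remained. The G2/M-high share still differed in sign between these libraries. 7 of the 35 genes were lower in Atoh1 cells and 0 higher, where 26.1% of all genes passed and 15.5% were lower, so the share of called genes was near that of all genes. The median log2 difference was -0.18, against -0.03 over all genes. Prc1 had 103, 117, 89.7 and 132 CPM in Atoh1 cells of RL e14 replicates 1 and 2 and RL e13 replicates 1 and 2, against 191, 121, 159 and 178 CPM in Sox2 progenitors (-0.53 ± 0.12, adjusted p = 0.0107 in limma). It was lower in 4 of 4 libraries although the ranges overlapped. Aspm had 30.0, 29.5, 31.2 and 38.3 CPM in Atoh1 cells, against 39.1, 40.3, 59.0 and 55.9 CPM in Sox2 progenitors (-0.51 ± 0.11, adjusted p = 0.00797 in limma), with no overlap. Pttg1 had 141, 151, 113 and 124 CPM in Atoh1 cells, against 216, 161, 158 and 166 CPM in Sox2 progenitors (-0.39 ± 0.09, adjusted p = 0.0103 in limma), with no overlap. Ccnb2 had 103, 104, 85.5 and 102 CPM in Atoh1 cells and -0.37 ± 0.10 (adjusted p = 0.0187 in limma). Cenpf (-0.41 ± 0.12), Hmmr (-0.36 ± 0.11) and Kif11 (-0.33 ± 0.10) were the other called genes, with adjusted p-values of 0.0307 to 0.0463 in limma. 4 of the 7 belong to the spindle or cytokinesis.

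The most used marks of proliferation did not pass in this comparison. Mki67 had 168, 182, 177 and 221 CPM in Atoh1 cells, against 200, 149, 265 and 228 CPM in Sox2 progenitors (-0.15 ± 0.12, adjusted p = 0.43 in limma). Top2a had -0.15 ± 0.14, Cdk1 -0.20 ± 0.15, Ccnb1 -0.33 ± 0.13, Ccna2, the cyclin of S phase and G2, -0.11 ± 0.11, Cdc20 -0.18 ± 0.12, Plk1 -0.27 ± 0.15 and Hmgb2 -0.16 ± 0.11, with adjusted p-values of 0.0955 to 0.492 in limma. Ube2c (0.01 ± 0.15), Aurka (-0.02 ± 0.15), Bub1b, the checkpoint protein BubR1 (-0.03 ± 0.09), Cenpa (-0.04 ± 0.12) and Birc5 (-0.05 ± 0.14) had the highest values. The count of lower genes rested on single libraries: 16 without RL e14 replicate 2, whose Sox2 progenitors had the lowest G2/M-high share (28.5%), 4 without RL e13 replicate 1, 1 without RL e14 replicate 1 and 0 without RL e13 replicate 2. It was 0 with a gate of 2 UMIs and 4 with median-of-ratios scaling, which also turned the split of all called genes to 53.8% higher, against 40.8% higher with the scaling used here.

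**Figure D4:**
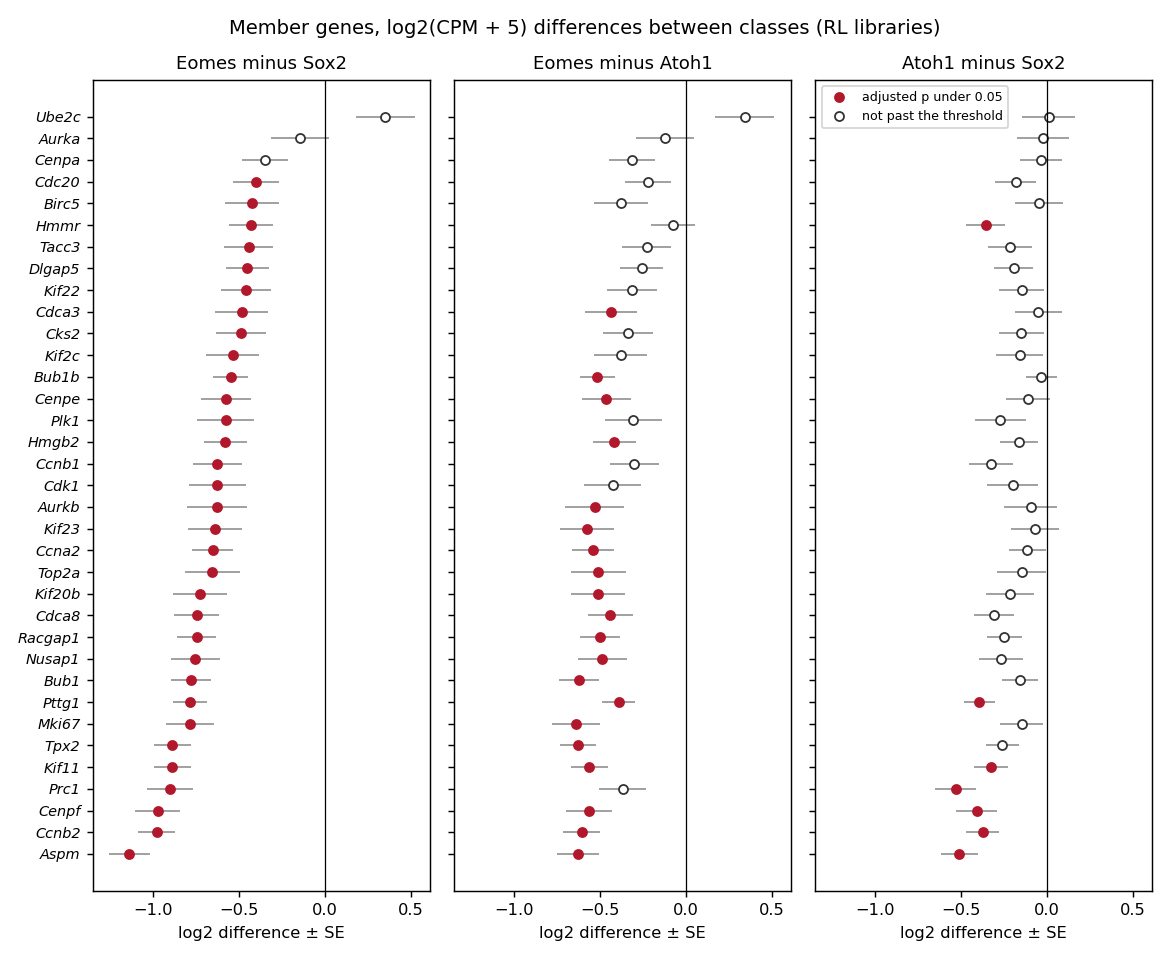
Log2 difference with its SE (x axis) of each of the 35 genes in Eomes cells minus Sox2 progenitors, Eomes cells minus Atoh1 cells and Atoh1 cells minus Sox2 progenitors of the RL libraries, from limma on log2(CPM + 5). Filled points passed an adjusted p of 0.05 (32, 20 and 7 genes), and Ube2c at the top has an open point right of 0 in all 3 panels.

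Levels inside G2/M-high cells were described without a test, since these genes define the cells. 11 of the 35 genes were lower in Atoh1 cells than in Sox2 progenitors in 4 of 4 libraries. Aspm averaged 85.7 CPM (70.5 to 98.6) in G2/M-high Atoh1 cells and 118 CPM (76.2 to 140) in G2/M-high Sox2 progenitors, and Prc1 averaged 281 CPM (239 to 320) and 386 CPM (354 to 413). The ratio of Atoh1 cells to Sox2 progenitors ranged from 0.72 for Aspm to 1.09 for Ube2c, with a median of 0.94, and was above 1 for 9 genes. The ratio of G2/M-high Eomes cells to G2/M-high Atoh1 cells of the RL libraries was above 1 for 32 of the 35 genes, with a median of 1.20. By the stricter count per library, 24 genes were lower in Eomes cells in 0 of 3 libraries. No share over all genes is given beside these counts. The sum of 53 other G2/M genes, Tubb5 among them, was also higher in G2/M-high Eomes cells. It was 11351, 12245 and 12464 CPM in RL e14 replicates 1 and 2 and RL e13 replicate 2. G2/M-high Atoh1 cells there had 9641, 10637 and 10461 CPM. The gap was not particular to G2/M-high cells. In the other cells the sum was 5398, 6399 and 5041 CPM in Eomes cells, against 3195, 2956 and 3246 CPM in Atoh1 cells. The part of Tubb5 in it was not tested. Ube2c had the highest ratio (2.03), with 159 CPM (108 to 238) in G2/M-high Eomes cells and 78.4 CPM (52.2 to 115) in G2/M-high Atoh1 cells. Hmmr had 240 CPM (192 to 266) and 155 CPM (131 to 177), and Bub1 had the lowest ratio (0.89). Among Eomes cells, the G2/M-high ones had less neuronal mRNA, 4793 CPM against 9848 CPM in the others of the e16 library, and more Atoh1, 47.2 CPM against 9.24 CPM.

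The e16 library, which has no replicate, was set beside the RL libraries for Eomes cells. 34 of the 35 genes were at least 2-fold lower on the log2(CPM + 5) scale and below every RL library, where 5.73% of 8288 genes were lower by this rule and 9.91% passed in either direction. The median log2 difference was -1.76 for the 35 genes and 0.04 for all genes. This count rested on how Eomes cells were gated, an alternative chosen after seeing the data. A gate of 0 UMIs also depends on depth. It kept 2159 of 2396 e16 Eomes cells, but 61 of 168, 75 of 144 and 61 of 219 in the deeper RL libraries. Before that gate, G2/M-high Eomes cells there had median depths of 17478.5, 24276.5 and 22329.5 UMIs, against 14685, 17941 and 17341 in the others. Depth and the kind of cell cannot be told apart under this gate. With 0 UMIs of Atoh1 and Sox2 required, 29 of the 35 genes averaged 10 CPM or more and were counted, and 5 of them were lower by the same rule, where 3.42% of 8169 genes were. The median was then -0.78, and 8 of the 29 genes lay below every RL library. Without RL e13 replicate 2, whose sum was 512 CPM under that gate, 22 of 31 genes were lower and the median was -1.35. Under the wider gate, Pttg1 had 17.2 CPM in e16 Eomes cells, against 121, 89.1 and 102 CPM in those of RL e14 replicates 1 and 2 and RL e13 replicate 2 (log2 difference -2.28). Nusap1 had 19.6 CPM against 144, 77.0 and 131 CPM (-2.27), and Top2a 45.4 CPM against 272, 189 and 250 CPM (-2.25). Mki67, at 30.5 CPM against 121, 81.7 and 147 CPM, was in the middle of the list (-1.74). Racgap1, which organises the contractile ring with Kif23, was among the least changed of the 34 with 28.8 CPM against 68.3, 60.0 and 70.9 CPM (-1.08). The age, the mouse line and the library cannot be told apart in this comparison, and the e16 library was also the shallowest.

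Ube2c was the exception, with 28.4 CPM in e16 Eomes cells against 36.7, 47.7 and 37.5 CPM in RL Eomes cells (-0.44). The 91 G2/M-high cells of the e16 library had 269 CPM of Ube2c, and its other 2283 Eomes cells had 18.9 CPM (460 UMIs), against 5.89 to 9.41 CPM in the other Eomes cells of the RL libraries. In e16 Eomes cells with at most 2 of the 35 genes detected, Ube2c stood at 16.9 CPM, Cenpf at 24.2 CPM and Racgap1 at 15.4 CPM, while Mki67 stood at 1.86 CPM, Top2a at 1.61 CPM and Plk1 at 0.355 CPM. In the G2/M-high cells of the same library, Mki67 stood at 708 CPM, Top2a at 1124 CPM, Cenpf at 1305 CPM and Racgap1 at 332 CPM. Both groups of cells were picked by how many of the 35 genes were detected, so these levels are partly set by that choice. Pttg1 had 209 CPM in the G2/M-high e16 Eomes cells, against 406 CPM (373 to 457) in those of the RL libraries. Over the 35 genes, the ratio of the e16 library to the RL libraries in these cells ranged from 0.52 to 1.69, with a median of 1.18. It rests on 1 e16 library, and no ratio over all genes is given beside it. In the other Eomes cells Pttg1 had 9.74 CPM in the e16 library, which lay within the 8.06 to 17.9 CPM of the RL libraries.

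**Figure D5:**
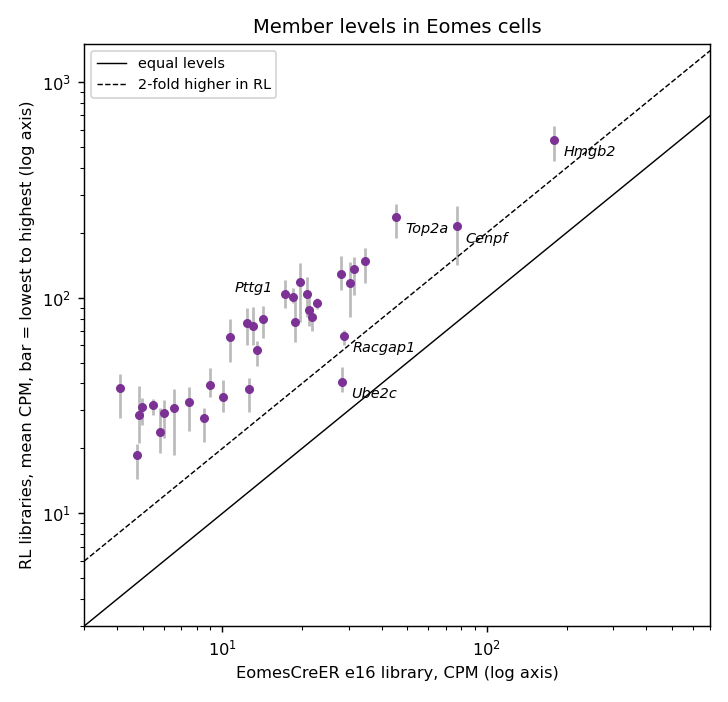
Level of each of the 35 genes in Eomes cells of the e16 library (CPM, x axis, log scale) against the mean of 3 RL libraries (CPM, y axis, log scale; bars run from the lowest to the highest library). All points but Ube2c lie above the dashed line of a 2-fold higher RL level.

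RL e14 libraries were compared with RL e13 libraries in each class. Of all genes tested, 0.00% passed, and so 0 of the 35 genes did, in Sox2 progenitors (8426 genes), in Atoh1 cells (8229 genes) and in the difference between both classes (8419 genes). At an unadjusted p under 0.05 in limma, 2 genes of the 35 were lower in Sox2 progenitors, 1 was higher in Atoh1 cells, and 0 passed for the difference. By that rule, 600 of all 8426 genes were lower and 154 higher in Sox2 progenitors. In Atoh1 cells 1130 of 8229 were lower and 203 higher, and 318 of 8419 passed for the difference. Mki67 had 200 and 149 CPM in RL e14 and 265 and 228 CPM in RL e13 Sox2 progenitors (-0.50 ± 0.17, adjusted p = 0.547 in limma), and 168 and 182 CPM against 177 and 221 CPM in Atoh1 cells (-0.18 ± 0.13, adjusted p = 0.51 in limma). The highest values were those of Pttg1 in Sox2 progenitors (0.20 ± 0.17) and of Aurkb in Atoh1 cells (0.42 ± 0.25), and in Atoh1 cells Tacc3, a spindle protein, was lowest (-0.28 ± 0.12), with adjusted p-values of 0.334 to 0.714 in limma. For the difference between classes, all 35 genes had values above 0, from 0.06 ± 0.19 for Ccnb2 to 0.57 ± 0.28 for Aurkb (adjusted p = 0.968 and 0.864 in limma), but without RL e14 replicate 2 only 16 did. Of all 8419 genes 3957 lay above 0, as did 30 of 30 S phase genes and 37 of 45 other G2/M genes. With RL e13 replicate 2 counted as e14 by its age tag, 6 of the 35 genes were higher in Atoh1 cells of e14, and without that library 12 were. Over all genes, 287 were then higher and 246 lower of 8229 by the age tag, and 455 higher and 807 lower of 8194 without that library. The G2/M-high share differed by -3.08 points in Sox2 progenitors and 5.20 points in Atoh1 cells (e14 minus e13), against a spread within ages of 10.7 and 5.11 points.

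The other genes of the cell cycle were described from 3 lists. Of 53 further G2/M genes present, 44 were tested between classes. 33 passed between Eomes cells and Sox2 progenitors, 32 of them lower, and 26 between Eomes cells and Atoh1 cells, 25 of them lower, with medians of -0.53 and -0.44. Kif15, a spindle motor, was lowest between Eomes and Atoh1 cells (-0.72 ± 0.14, adjusted p = 0.00314 in limma). The exception in both was Tubb5, a tubulin also abundant in neurons (0.76 ± 0.09 against Atoh1 cells, adjusted p = 0.000246 in limma). Between Atoh1 cells and Sox2 progenitors, 9 of the 44 fell, Ckap2 by 0.57 and Tubb4b by 0.54 on the log2 scale, and Cdc25b, a phosphatase that activates CDK1, rose (0.63 ± 0.13, adjusted p = 0.00782 in limma).

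Of 29 S phase genes tested, 2 were lower and 0 higher in Atoh1 cells than in Sox2 progenitors, Mcm4 (-0.24 ± 0.07) and Rfc2 (-0.27 ± 0.08), where 15.5% of all genes were lower. Their median was 0.04. Between Eomes cells and Atoh1 cells 28 of 29 were lower, with a median of -0.66 and Mcm6, of the replicative helicase, lowest (-1.25 ± 0.14, adjusted p = 0.000172 in limma). Of 11 genes of cell cycle exit, 6 were higher in Eomes cells than in Atoh1 cells, led by the CDK inhibitors Cdkn1a (1.99 ± 0.19) and Cdkn1b (1.09 ± 0.14), and 3 were lower, Cdkn2c, Cdkn1c and Gadd45g (-1.31 ± 0.23). Gadd45g, a stress and cell cycle gene, was higher in Atoh1 cells than in Sox2 progenitors (2.27 ± 0.20, adjusted p = 0.000109 in limma), and Cdkn1c, another CDK inhibitor, was lower (-0.95 ± 0.18, adjusted p = 0.00422 in limma). In e16 Eomes cells, 26 of 36 further G2/M genes and 23 of 28 S phase genes were 2-fold lower than in the RL libraries, and 2 of 10 exit genes were lower and 1 higher. With 0 UMIs of Atoh1 and Sox2 required, 0 of 20 further G2/M genes and 4 of 17 S phase genes were lower. Without RL e13 replicate 2 as well, 7 of 22 and 6 of 17 were.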

How the data were processed

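Single-cell RNA was measured in 5 libraries. Per the labels' protocols, 10x Chromium 3' kits of versions v3 and v3.1 were used. Per the submitters' processing notes, Cell Ranger and mm10 were the tool and the build. The deposited table gives natural log values per cell, ln(1 + 10000 × UMIs / total UMIs). All 29540669 values above 0 were whole multiples of 1 UMI (100%, tolerance 0.01 of a UMI), which gave back the counts used for thinning and intervals. Libraries held 13607965 to 33502151 UMIs. No count model was run, because the deposited natural log values were kept as the main unit.

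The members, gene lists and tests were chosen with earlier results of these data known. Class means of back-transformed values with 20 or more cells were scaled to CPM, genes averaging under 10 CPM were dropped, and log2(CPM + 5), which understates changes of low genes, was tested with limma 3.58.1 (R 4.3.3, trend) and Benjamini-Hochberg adjustment over all genes. Eomes, Atoh1 and Sox2 classes of the RL libraries shared 1 fit with the library as a block. Eomes cells came from 3 of these libraries. Shares and sums were given per library with no test, and the e16 library by a limit of 2-fold and a value outside the RL range. Thinning used 1 random draw. The labels do not call the libraries separate animals, and the p-values reflect how far these libraries scatter, which could be technical in origin. No doublet caller was run, and the 5% of cells with the most UMIs were left out as an alternative. Genes printed in full were, per comparison, the 5 highest and 5 lowest differences of the 35, up to 10 called genes and 8 fixed genes (Mki67, Top2a, Cdk1, Ccnb1, Ccna2, Cdc20, Plk1 and Hmgb2). Where nothing passed, between RL e14 and RL e13, only the highest, the lowest and Mki67 are printed. Tests were checked on simulated profiles.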

Additional observations from a re-analysis of the deposited data

Results flagged for a closer look

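In 5 of 46 sets of 4 RL libraries that were examined, 1 library lay far from the other 3. Chance gives about 1 in 20 for a single set. The sets are not independent, since genes that vary together were read in the same libraries, so the count cannot be set against that rate. Top2a in Sox2 progenitors was low in RL e14 replicate 2, with 231 CPM against 419 to 441 CPM in the others. Pttg1 in Sox2 progenitors was high in RL e14 replicate 1, with 216 CPM. In Atoh1 cells of RL e13 replicate 1, Ccnb2 (85.5 CPM), Plk1 (23.1 CPM) and Hmgb2 (551 CPM) were low.

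Cells in none of the 3 classes, which no comparison used, also held G2/M-high cells. They were 10.1% in the e16 library, 29.0% and 23% in RL e14 replicates 1 and 2, and 40.0% and 28.9% in RL e13 replicates 1 and 2.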

How the results depend on the processing

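Of 241 values of counts, shares and sums under an alternative, 214 stayed near the reported value and 27 moved. The cause was not tested. The 214 include the share between ages in Sox2 progenitors, which changed sign with 1 library left out, within the spread of the libraries. For Atoh1 cells against Sox2 progenitors the 7 lower genes became 4 with median-of-ratios scaling, 0 with a gate of 2 UMIs, 12 with summed UMIs and 2 without the library block. Leaving out 1 library gave 0 to 16. For Eomes cells against Atoh1 cells the 20 became 13 with gates of 2 per 10000, 32 with exclusive classes and 10 without the block, and 9 to 29 with 1 library left out. For Eomes cells against Sox2 progenitors the 32 became 18 with a gate of 2 UMIs and 20 to 33 with 1 library left out. 1 gene was higher with a gate of 2 UMIs and 1 without the 5% of cells with the most UMIs, and 0 to 1 with 1 library left out. Between ages in Atoh1 cells, 6 genes were higher by the age tag and 0 to 12 with 1 library left out, and 2 passed by the age tag for the difference between classes. The G2/M-high share of Eomes minus Atoh1 cells was -11.0 points at 12 or more genes, -20.6 not thinned and -21.0 with exclusive classes, and -17.7 to -13.8 with 1 library left out. For e16 Eomes cells against those of the RL libraries, the 34 genes became 5 with exclusive classes and 22 with these and without RL e13 replicate 2, both chosen after seeing the data. With 1 library left out, the share differed by -8.13 to -0.468 points between Atoh1 cells and Sox2 progenitors, and between ages by -13.7 to 7.56 points in Sox2 progenitors and 0.464 to 9.94 points in Atoh1 cells.

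Signs turned for genes near 0. In Atoh1 cells against Sox2 progenitors, Ube2c was -0.24 with gates of 2 per 10000, -0.22 with exclusive classes, -0.12 with summed UMIs and -0.14 to 0.21 with 1 library left out (-0.07 without RL e13 replicate 2). With median-of-ratios scaling Aurka was 0.03, Bub1b 0.03, Cenpa 0.03 and Birc5 0.01. With a gate of 2 UMIs Aurka was 0.04, Bub1b 0.07, Cenpa 0.00, Birc5 0.04, Mki67 0.00 and Top2a 0.01. With 1 library left out the ranges were -0.18 to 0.13 for Aurka (0.06 without RL e14 replicate 1), -0.12 to 0.03 for Bub1b, -0.17 to 0.05 for Cenpa (0.02 without RL e14 replicate 1), -0.23 to 0.13 for Birc5 and -0.24 to 0.00 for Ccna2. In Eomes cells against Atoh1 cells, Hmmr was 0.01 and Aurka 0.06 with a gate of 2 UMIs, Aurka was 0.14 with gates of 2 per 10000, and leaving out 1 library gave -0.15 to 0.02 for Hmmr and -0.20 to 0.08 for Aurka. In Eomes cells against Sox2 progenitors, Ube2c was -0.19 with exclusive classes and Aurka 0.10 with a gate of 2 UMIs. Between ages, Pttg1 in Sox2 progenitors was -0.01 to 0.40 with 1 library left out, Mki67 in Atoh1 cells was 0.09 by the age tag, and Ccnb2 for the difference was -0.00 without the 5% of cells with the most UMIs and -0.17 to 0.29 with 1 library left out (-0.05 without RL e13 replicate 1).

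The labels do not pair the numbered libraries, and deviations of same-numbered libraries correlated at 0.16 in Sox2 progenitors and 0.016 in Atoh1 cells. With the replicate block between ages, 0 genes of the 35 passed in each comparison, so the pairing changed no call. Adding the e16 library to the fit of 3 classes left the counts of the 35 genes at 7, 20 and 32, while 8546 genes were tested in place of 8499 and the counts over all genes moved. Low counts of Plk1, Aspm and Ube2c limit what can be seen in single cells at 5000 UMIs.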
